A study of Mus musculus with 18 samples.

Results

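Lmo4 encodes LIM domain only 4, a small nuclear protein made mostly of zinc-binding LIM domains that carries no DNA-binding domain of its own. It was described here together with Ldb1, which encodes the LIM domain-binding adaptor, and Lmo2, a gene of the same LIM-only family. These 3 members of the 24781 gene entries of the table were taken by symbol. Lmo4 was chosen by its measured fold changes between CD45 knockout (KO) and control cells, which differed in sign between tissues, so its levels and fold changes are given as a description without a test. Ldb1 and Lmo2 were chosen for their relation to Lmo4. Of the 3, Lmo4 and Ldb1 passed the filter on low counts and are among the 1916 genes tested, and Lmo2 did not pass it.

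Transcripts were counted by RNA sequencing in group 2 innate lymphoid cells (ILC2), lymphocytes without rearranged antigen receptors that secrete type 2 cytokines, sorted from mouse bone marrow and lung. The genotype labels give 2 genotypes, Rag2 KO for control mice and CD45 KO x Rag2 KO for mice without CD45, so the control mice also lacked Rag2 and with it T and B cells. CD45 is the receptor tyrosine phosphatase of leukocytes, encoded by Ptprc. There were 18 libraries, 3 for each genotype of 3 populations: ILC2 of the marrow at a mature stage, at an immature stage (labelled ILC2P), and ILC2 of the lung. The labels give no age, and nothing in them says whether the 3 libraries of a group came from separate animals, so p-values measure the spread between libraries, which may be technical.

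LIM-only proteins act as bridges. Each binds LDB1 through its LIM domains, LDB1 pairs with itself, and the assembly joins DNA-binding proteins such as GATA factors and E proteins at enhancers and promoters. LMO2 is known as the bridge in blood stem cells and red cell precursors, whereas LMO4 is expressed in many tissues, including lymphocytes and epithelium, and competes with other LIM proteins for LDB1.

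Total counts ran from 68077 to 122250 per library. Levels below are CPM, counts scaled to library sizes corrected with TMM factors, and fold changes are on the log2 scale with the standard error (SE). Ptprc, the targeted gene, fell in CD45 KO cells of all 3 populations, with log2 fold changes of -1.68 ± 0.29 (mature), -2.01 ± 0.31 (immature) and -1.86 ± 0.27 (lung) (n = 3 per group, edgeR's quasi-likelihood test, adjusted p = 0.00015, 7.90e-06 and 6.28e-07). In a fit on the 6 mature libraries alone the mature value did not pass (-1.68, adjusted p = 0.0664). The deleted stretch of Ptprc is not named in the labels. The 9 ILC2 markers, among them Gata3, Il7r and Il1rl1, had counts in every group, with sums of 5997 to 11110 CPM per library. T cell, NK and ILC1 marker sums were at most 17.6 CPM in any library and B cell and ILC3 sums at most 35.2 CPM. Erythroid sums reached 79.2 CPM, in marrow, and epithelial and stromal sums 83.4 CPM, in mature CD45 KO replicate 1. The library labelled mature CD45 KO replicate 1 stood apart from its group: its counts differed from the other 2 libraries with a chi-square of 2.55 and 2.74 per degree of freedom, against 1.07 to 1.67 for all other pairs within a group. It also held 238 CPM of Ptprc, against 101 and 88.0 CPM in the other mature CD45 KO libraries, and 83.4 CPM over the blood progenitor markers (7 counts, all of Myb), against 16.9 and 17.6 CPM. Its epithelial and stromal sum stood against 16.9 and 26.4 CPM in the other mature CD45 KO libraries. The entry Rn45s took 16.1% of its counts, against 9.93% and 8.88%. Without this library the mature Ptprc log2 fold change was -2.16. Mature CD45 KO values of the members are given with and, where they move, without that library.

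Lmo4 (ENSMUSG00000028266.17, protein coding, mm10 chromosome 3, minus strand, 144188530 to 144205220) was lower without CD45 in both bone marrow populations and higher without CD45 in lung. It had 60 to 300 counts in each library. The annotated intronic transcript Gm43445 lies inside it on the same strand, over 12.5% of its span. Relative to control, its mean level in CD45 KO cells was 1.59-fold lower in mature marrow, 1.69-fold lower in immature marrow and 1.79-fold higher in lung ILC2, as fitted.

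In mature bone marrow ILC2, Lmo4 was at 1103, 1041 and 1113 CPM in the control libraries (mean 1086 ± 38.9, SD, n = 3). In the mature CD45 KO libraries it was at 1025, 505 and 581 CPM (704 ± 281). All 3 CD45 KO libraries lay below all 3 controls, with the first of them, the library that stood apart from its group, next to the lowest control. The log2 fold change was -0.67 ± 0.17, and it was -0.99 without that library. Libraries did not overlap in this direction for 6.21% of the genes tested. The SE comes from a fit that shares its estimate of the spread over the 6 groups. It does not follow the spread of the mature CD45 KO libraries alone. In a library from sorted cells, fewer cells with the transcript and less transcript per cell cannot be told apart.

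In immature marrow cells Lmo4 was at 1327, 1137 and 964 CPM in control libraries (1143 ± 181). It was at 729, 658 and 641 CPM in CD45 KO libraries (676 ± 47.1). The groups did not overlap, as for 8.51% of genes tested in this direction. The log2 fold change was -0.76 ± 0.17.

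In lung ILC2, the tissue-resident population, Lmo4 was at 1532, 1155 and 1741 CPM in control libraries (1476 ± 297). It was at 2531, 2792 and 2618 CPM in CD45 KO libraries (2647 ± 133). Every CD45 KO library was above every control, as for 12.3% of genes tested in this direction, and the log2 fold change was 0.84 ± 0.14. One lung CD45 KO library, replicate 1, held 11 counts of macrophage and monocyte markers (153 CPM; 8 of Lyz2, 2 of Cd68 and 1 of Adgre1, with Csf1r and C1qa at 0), whereas the other 5 lung libraries held none. Its Lmo4 level was the lowest of its group, and the log2 fold change was 0.89 without it. Of 5 mast cell and basophil markers, Mcpt8, Ms4a2, Fcer1a and Tpsb2 were at 0 in all 18 libraries. Cpa3, the remaining one, was at 35.2 to 53.5 CPM in lung control and 0 to 18.6 CPM in lung CD45 KO libraries, and its part in the Lmo4 difference was not tested.

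**Figure D1:**
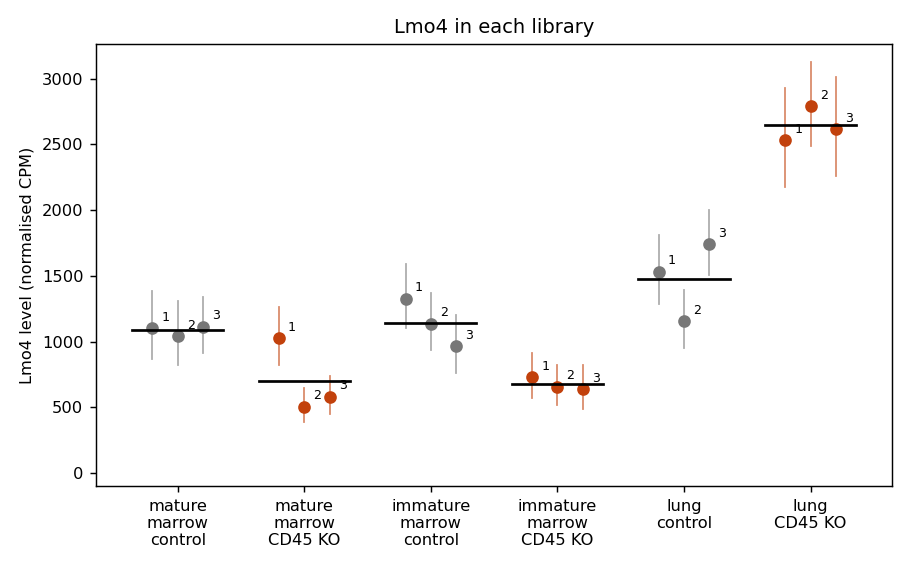
Lmo4 level in each of the 18 libraries in normalised CPM, by population and genotype; points are libraries numbered by replicate, thin lines their 95% Poisson counting intervals, and black bars the means of 3 libraries. The 3 lung CD45 KO libraries sit between 2531 and 2792 CPM, and in marrow the CD45 KO libraries lie below the controls, with mature CD45 KO replicate 1 at 1025 CPM close to them.

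The 6 groups in rising order of mean Lmo4 level were immature CD45 KO, mature CD45 KO, mature control, immature control, lung control and lung CD45 KO. The libraries of immature and mature CD45 KO cells overlapped, as did those of mature and immature control, and those of immature and lung control. The gaps between mature CD45 KO and mature control and between lung control and lung CD45 KO were free of overlap. Without mature CD45 KO replicate 1 the mature CD45 KO mean was 543 CPM (n = 2) and the lowest place passed from immature to mature CD45 KO cells. Lung control libraries lay above the mature control libraries without overlap, as for 20.5% of genes tested in this direction, with a fitted log2 difference of 0.45 ± 0.16, and that to immature control was 0.37 ± 0.15. Among controls the lung mean was 1.36-fold the mature and 1.29-fold the immature marrow mean. Among CD45 KO groups it was 3.76-fold the mature and 3.92-fold the immature marrow mean, with the lowest lung library at 2531 CPM and the highest marrow CD45 KO library at 1025 CPM. Without mature CD45 KO replicate 1 the first ratio was 4.87 and the highest marrow CD45 KO library was at 729 CPM. The wider tissue gap in CD45 KO than in control cells restates the opposite CD45 effects for which Lmo4 was chosen and is no separate result. The share of all genes without overlap between lung and marrow CD45 KO libraries is not given here. The fitted log2 difference between mature and immature control cells was -0.08 ± 0.17, and 0.06 without immature control replicate 1.

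Set against each other, the CD45 effects on Lmo4 differed by 1.51 ± 0.22 between lung and mature marrow and by 1.60 ± 0.22 between lung and immature marrow, on the log2 scale. Of the 1916 genes tested, 30 had a larger fitted value for the first difference and 43 for the second. For the CD45 effect itself, 111 genes were lower than Lmo4 in mature marrow, 125 were lower in immature marrow and 62 were higher in lung. Positions are with all libraries. Without mature CD45 KO replicate 1 the mature effect was -0.99 and lung minus mature 1.86, and positions are not given for that case. These positions describe the pattern for which the gene was picked and are no support for it.

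The spread of Lmo4 between replicates was compared with what counting alone gives. The coefficient of variation was 3.58% in mature control, 6.97% in immature CD45 KO and 5.01% in lung CD45 KO libraries, below the 10.7%, 11.9% and 6.66% that counting error gives at their mean counts. It was 15.9% in immature control and 20.1% in lung control, above counting errors of 9.85% and 8.21%. In mature CD45 KO libraries, with 1 library near the control level, it was 39.9% against 11.9%. Counting intervals and limits here cover counting error only.

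The direction seen for Lmo4, below 0 in both marrow populations and above 0 in lung, was shared in sign by 283 of 1916 genes (14.8%), and the mirror pattern was seen in 259 (13.5%). With the stricter condition that libraries did not overlap, 26 genes (1.36%) were higher in lung and lower in immature marrow CD45 KO cells, Lmo4 among them, and 15 (0.783%) showed the reverse. For 5 genes (0.261%) the mature marrow libraries did not overlap either. Besides Lmo4, these were Birc3, an inhibitor of apoptosis induced by NF-kB, the deacetylase gene Sirt2 and the gene models Gm4956 and Gm12191, named after their values were seen. Mean counts per library were 12.9 for Birc3, 5.83 for Sirt2 and 19.8 for Gm4956, against 117 for Lmo4. Gm12191 had a mean of 125 counts but small effects, -0.15 in mature, -0.18 in immature and 0.30 in lung cells.

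Ldb1 (ENSMUSG00000025223.15, protein coding, chromosome 19, minus strand, 46031570 to 46045214) is the partner through which LIM-only proteins enter larger complexes. Its mean in CD45 KO cells was below the control mean in each population, and 0 of these 3 differences passed the test. Fewer counts stand behind it than behind Lmo4, 5 to 33 per library. Its 5' end overlaps Pprc1 on the opposite strand over 329 bases, and without a stated strand setting for the counting, reads from that stretch cannot be told apart.

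Ldb1 was at 104, 125 and 331 CPM in mature control libraries (187 ± 125, n = 3) and at 83.4, 75.8 and 106 CPM in mature CD45 KO libraries (88.3 ± 15.5). The mature control mean was set by the third library, and the first control lay within the CD45 KO range. The log2 fold change was -1.19 ± 0.36 with a 95% interval of -1.91 to -0.46 (edgeR's quasi-likelihood test, unadjusted p = 0.00164, adjusted p = 0.14). Without that control library it was -0.37, with an adjusted p of 0.922. In this comparison 0.261% of genes tested passed.

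In immature ILC2, Ldb1 was at 111, 196 and 244 CPM in control (184 ± 67.7) and 158, 77.9 and 137 CPM in CD45 KO libraries (124 ± 41.4). The libraries overlapped, and the log2 fold change of -0.57 ± 0.34 did not pass (95% interval -1.25 to 0.10, edgeR adjusted p = 0.499, 1.67% of genes passing). In lung it was at 99.2, 128 and 123 CPM in control (117 ± 15.5) and 125, 74.4 and 67.5 CPM in CD45 KO libraries (89.0 ± 31.5). The libraries overlapped here too, and the log2 fold change of -0.43 ± 0.42 did not pass (95% interval -1.26 to 0.40, edgeR adjusted p = 0.742, 2.51% of genes passing).

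The fitted CD45 effect on Ldb1 was below 0 in marrow and in lung, whereas that on Lmo4 was of opposite sign in lung. The effect on Ldb1 in lung minus that in mature marrow was 0.76 ± 0.57 (95% interval -0.37 to 1.88, edgeR adjusted p = 0.746, 0.313% of genes passing), and -0.05 without mature control replicate 3. In lung minus immature marrow it was 0.15 ± 0.55 (-0.95 to 1.24, edgeR adjusted p = 0.952, 0.365% of genes passing). A difference between tissues of the size seen for Lmo4 lies inside the first and outside the second. Those Lmo4 values were the ones for which it was chosen and have an SE of 0.22 each. Whether the effects on Ldb1 and Lmo4 differ was therefore not tested.

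Between tissues of control mice, Ldb1 was lower in lung than in mature marrow by a log2 difference of -0.78 ± 0.35 (edgeR adjusted p = 0.0881, 25.6% of genes passing). The value was 0.03 without mature control replicate 3, and it passed without mature control replicate 1 or 2 (edgeR adjusted p = 0.0259 and 0.0378). Against immature marrow the difference was -0.63 ± 0.35 (adjusted p = 0.19, 25.5% passing), and between mature and immature control cells 0.16 ± 0.32 (adjusted p = 1, 0.0522% passing), or -0.65 without mature control replicate 3.

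The ratio of Lmo4 to Ldb1 counts was highest in lung CD45 KO cells. Counts are not divided by transcript length, so this ratio is read only for its change across groups. Summed over the libraries of a group, there were 5.31 Lmo4 counts per Ldb1 count in mature control (95% exact interval 3.90 to 7.36) and 7.57 in mature CD45 KO cells (5.09 to 11.7), or 6.0 (3.76 to 10.03) without replicate 1 of the latter. The mature control sum was set by replicate 3, which held 33 of the 49 Ldb1 counts and the lowest ratio, 3.36. By library median, mature control was at 8.33 and mature CD45 KO at 6.67, the reverse of the order of the sums. The immature groups were at 6.31 (4.65 to 8.71) in control and 5.55 (3.92 to 8.07) in CD45 KO cells, so the 4 marrow intervals overlapped each other. In lung the ratio was 12.7 (9.01 to 18.5) in control and 30.7 (20.1 to 49.4) in CD45 KO cells. By library it ran from 9.0 to 15.4 in lung control and from 20.2 to 38.8 in lung CD45 KO, without overlap, and from 3.36 to 12.3 over the marrow libraries (to 12 without mature CD45 KO replicate 1). The ratio uses the Lmo4 values that chose the gene and is given as a description.

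Lmo2 (ENSMUSG00000032698.15, protein coding, chromosome 2, plus strand, 103957986 to 103981878) was near the limit of detection. It had 9 counts in all, spread over 7 of 18 libraries with at most 2 in a library. By group there were 2 counts in mature control, 3 in mature CD45 KO, 2 in immature control, 1 in immature CD45 KO, 1 in lung control and 0 in lung CD45 KO cells. The 0 allows a level of up to 11.8 CPM in that group (3 counts over its 3 libraries), and the pooled 95% Poisson interval reached 30.2 CPM at most, in mature control. No difference between groups was detectable at this depth. Blood progenitor markers, a cell type in which Lmo2 is known to be active, had 11 counts in mature CD45 KO, 4 or fewer in the other marrow groups and 0 in lung. Of the 11, 7 were Myb counts in replicate 1, and without that library the group held 4 progenitor marker counts and 2 Lmo2 counts. Flt3 was at 0 in every library, and Cd34 had 1 count in all, in immature CD45 KO cells. The gene overlaps 4931422A03Rik on the opposite strand over 62.5% of its span, so even these few counts are uncertain in origin.

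**Figure D2:**
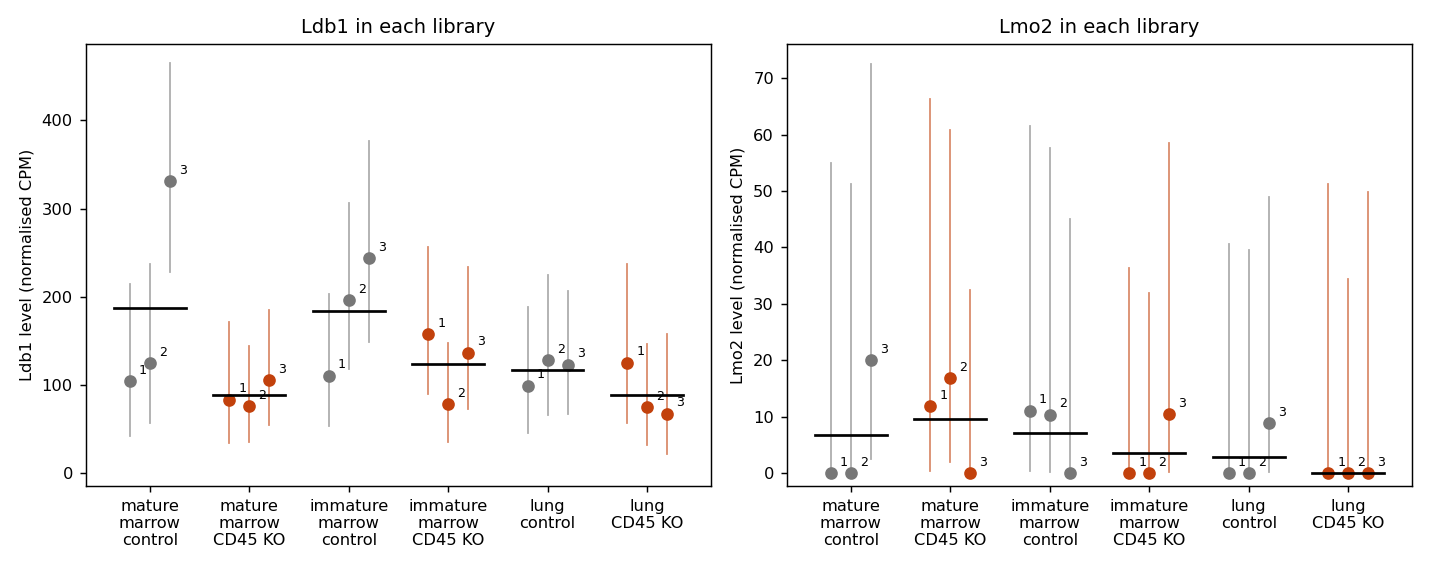
Ldb1 (left) and Lmo2 (right) in each of the 18 libraries in normalised CPM; points are libraries numbered by replicate, thin lines 95% Poisson counting intervals, black bars means of 3 libraries. For Ldb1, mature control replicate 3 at 331 CPM is the highest library, and for Lmo2 no library exceeds 20.1 CPM.

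The other family genes were at or near 0. Lmo1 had 1 count, Ldb2 1 count and Lmo3 0 counts over the 18 libraries. Of 12 LIM homeodomain genes, whose proteins also bind LDB1, Lhx9 had 1 count and the other 11 had 0.

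Genes of the wider LDB1 complex were followed from a list of 20, of which 4 (Gata3, Id2, Ssbp3 and Runx1) had enough counts for the test. In CD45 KO against control cells, 0 of the 4 passed in mature, immature or lung ILC2, where 0.261%, 1.67% and 2.51% of all genes tested passed. Their medians were -0.09, -0.06 and 0.08 on the log2 scale against medians over all tested genes of 0.00, -0.01 and 0.01. At an unadjusted p under 0.05 there were 0 in mature, 0 in immature and 1 (Id2) in lung, and DESeq2 also called 0, with 2 of the 4 genes given no adjusted p in immature and in lung cells. The shares above are for edgeR's adjusted p. That of all genes at an unadjusted p is not given here, so these counts are not read as a result. Gata3, the GATA factor required for ILC2, had an estimated CD45 effect of -0.15 ± 0.14 in mature, -0.25 ± 0.13 in immature and -0.04 ± 0.13 in lung cells (edgeR adjusted p = 0.805, 0.448 and 0.967). Id2, an inhibitor of E proteins, had 0.08 ± 0.14, 0.14 ± 0.14 and 0.37 ± 0.18 (adjusted p = 0.927, 0.724 and 0.295). Ssbp3, whose protein binds LDB1 and protects it from degradation, had -0.65 ± 0.45, -0.47 ± 0.38 and -0.52 ± 0.36 (adjusted p = 0.69, 0.658 and 0.565). Runx1, a partner of LDB1 complexes in blood cells, had -0.02 ± 0.44, 0.25 ± 0.43 and 0.19 ± 0.39 (edgeR adjusted p = 1, 0.881 and 0.93). For Gata3 and Id2 the 95% interval of the CD45 effect in lung minus that in immature marrow ran from -0.16 to 0.59 and from -0.21 to 0.67, below the value of 1.60 described for Lmo4. Lmo4 was chosen for that value, so a difference from it was not tested.

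Between tissues of control mice, Gata3 was higher and Id2 lower in lung. Gata3 rose from 2070 ± 369 CPM in mature marrow and 2478 ± 362 CPM in immature marrow to 3226 ± 191 CPM in lung (0.63 ± 0.13 and 0.38 ± 0.13, edgeR adjusted p = 0.000107 and 0.0237). Id2 fell from 1250 ± 179 and 1311 ± 72.4 CPM to 539 ± 50.3 CPM (-1.23 ± 0.16 and -1.28 ± 0.16, adjusted p = 8.77e-10 and 1.02e-10). Thus 1 of 4 tested complex genes was higher and 1 lower in lung, where 15% and 10.6% of all genes tested passed in these directions against mature marrow and 14.6% and 10.9% against immature marrow. The Gata3 call against immature marrow was lost without immature control replicate 3 (adjusted p = 0.201), without lung control replicate 1 (0.0854) and with DESeq2 (0.0846).

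Genes below the filter were close to the depth limit. The E protein genes Tcf3 and Tcf12 had 10 to 18 and 11 to 26 counts per group. Counts here are not scaled for depth, which differed between groups. Tcf12 had 26 counts in lung control and 11 in lung CD45 KO cells (means of 89.2 and 44.6 CPM). It had 23 or 24 in each marrow group (73.54 to 96.55 CPM). Tcf4, the remaining E protein gene listed, had 17 counts in control and 11 in CD45 KO mature cells, 19 and 11 in immature cells and 15 and 9 in lung. In the same order its means were 70.1 and 33.5 CPM, 71.3 and 37.2 CPM, and 51.0 and 35.0 CPM. Tcf4 was not among the genes tested. Ssbp2 and Ssbp4, relatives of Ssbp3, had 7 to 13 and 6 to 16 counts per group. Rlim, which encodes the ubiquitin ligase that marks LDB1 for degradation, had 7 to 18 counts per group. Deaf1, a transcription factor that binds LMO4, had 4 to 9 counts.

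Proteins reported to bind LMO4 or to act with it formed a second list of 12 genes, of which Hdac1, Smad3 and Stat3 were tested. In each of the 8 comparisons 0 of the 3 passed (edgeR's quasi-likelihood test), also at an unadjusted p under 0.05 and by DESeq2, which gave them no adjusted p in 4 comparisons. Of all genes tested, 0.0522% to 25.6% passed in these comparisons by edgeR's adjusted p, and the share at an unadjusted p is not given here. The median CD45 effect of the 3 was -0.64, 0.15 and 0.27 in mature, immature and lung cells, against 0.00, -0.01 and 0.01 over all genes tested. The CD45 effect on Stat3, a transcription factor of cytokine signalling, was 0.31 ± 0.32 in mature, 0.05 ± 0.32 in immature and 0.47 ± 0.32 in lung cells (adjusted p = 0.837, 0.981 and 0.561). Smad3, a factor of TGF-beta signalling, had -0.90 ± 0.61, 0.19 ± 0.56 and 0.27 ± 0.49, and the histone deacetylase gene Hdac1 had -0.64 ± 0.44, 0.15 ± 0.41 and -0.23 ± 0.43.

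**Figure D3:**
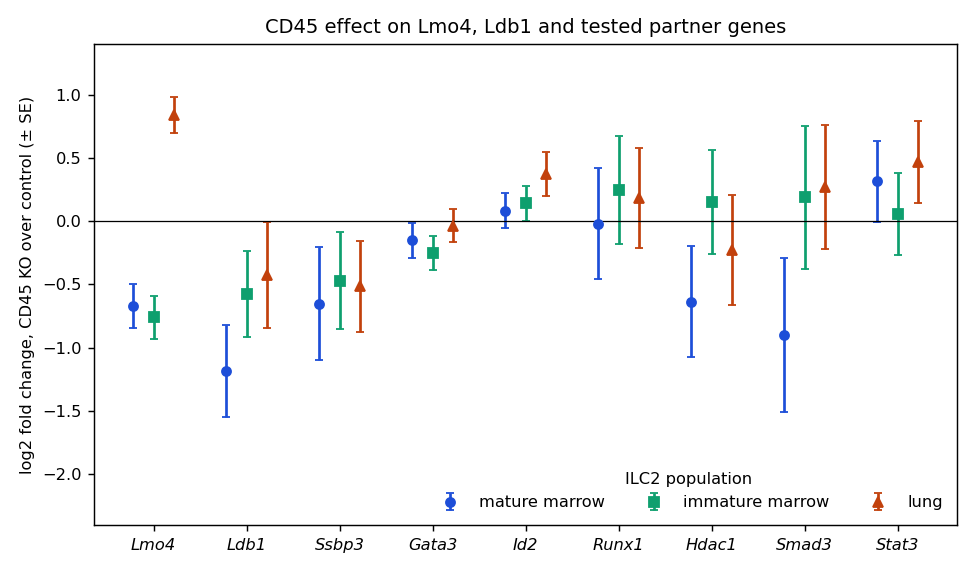
Log2 fold change of CD45 KO over control (± SE, n = 3 libraries per group) for Lmo4, Ldb1 and the 7 tested genes of the LDB1 complex and LMO4 partner lists, in mature marrow, immature marrow and lung ILC2. Lmo4 lies at -0.67, -0.76 and 0.84, whereas Ldb1 and Ssbp3 lie below 0 in all 3 populations without passing the test.

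Among 18 genes of ILC2 identity, 13 were tested. CD45 loss left 0 of them past the threshold in mature, 2 lower in immature and 1 higher and 1 lower in lung ILC2 (edgeR's quasi-likelihood test, where 0.574% of all genes passed as lower in immature, and 2.04% as higher and 0.47% as lower in lung). At an unadjusted p under 0.05 in edgeR there were 0 in mature, 4 in immature and 6 in lung cells, and the share of all genes at that threshold is not given here. DESeq2 called 0, 1 and 0, with no adjusted p for 2 of the 13 genes in immature and 3 in lung cells. Over the 13 genes the median log2 fold change was -0.13 in mature, -0.32 in immature and -0.02 in lung cells. In immature cells the genes past the adjusted threshold were Rora, a transcription factor of ILC2 development (-0.82 ± 0.23, edgeR adjusted p = 0.0408), and Il1rl1, the interleukin 33 receptor gene (-0.71 ± 0.15, adjusted p = 0.00298). In lung they were the costimulatory receptor gene Icos (0.56 ± 0.15, adjusted p = 0.027) and the transcription factor gene Maf (-0.99 ± 0.29, adjusted p = 0.0467). Il1rl1 passed under all 14 alternatives, whereas the other 3 calls were lost under several. Rora no longer passed when any single immature control library, or immature CD45 KO replicate 3, was left out, with edgeR adjusted p up to 0.309. Icos did not pass once replicate 1 or 2 of lung control, or replicate 1 or 2 of lung CD45 KO, was dropped (up to 0.123). Maf failed in the absence of lung control replicate 2 or 3 or of any single lung CD45 KO library (up to 0.368). Without the filter on low counts these 3 did not pass either (0.242, 0.198 and 0.32), and DESeq2's Wald test passed neither Rora nor Icos (0.097 and 0.0529). Icos was lost with scaling by total counts (0.077) and Rora without Rn45s and Rn4.5s (0.0546). Maf was lost also with DESeq2 size factors (0.0524), with a minimum of 10 counts in 3 libraries (0.0595), with the replicate block (0.0509) and without Rn45s and Rn4.5s (0.0519), and passed in 3 of 13 alternatives. The difference in CD45 effect between lung and immature marrow did not pass for any of the 4 genes (adjusted p = 0.153, 0.107, 0.107 and 0.133 for Rora, Il1rl1, Icos and Maf).

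Genes with the pattern most like that of Lmo4 were sought among 429 tested genes with a mean of at least 20 counts per library, leaving out gene models and ribosomal protein genes. Over the 6 group means of log2 CPM, which all genes share with Lmo4 as the same libraries, Pearson's r was highest for Arhgef1 (0.99), Tnfrsf18, which encodes the costimulatory receptor GITR (0.97), Rhoa (0.97), Nfkb1 (0.97), Ifngr1 (0.96) and the kinase gene Clk1 (0.95). Over the 18 libraries r was 0.56, 0.88, 0.28, 0.88, 0.83 and 0.75 in the same order. These values include the differences between the group means by which the genes were picked. Within groups, after each group mean was taken off, r was -0.25, 0.05, -0.50, -0.06, 0.14 and 0.30. Arhgef1 and Rhoa thus followed Lmo4 in shape of the means but not in size: the CD45 effect on Rhoa was -0.16, -0.19 and 0.09 in mature, immature and lung cells.

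By size of the 3 CD45 effects, the nearest genes were Tnfrsf18, Gpr132, Ifngr1, Lztfl1, Icos and Btg2, at Euclidean distances of 0.40 to 0.50 on the log2 scale. The distances use all libraries, with a mature Lmo4 effect of -0.67. That effect was -0.99 without mature CD45 KO replicate 1, and the distances without that library are not given here. Tnfrsf18 was at 274 ± 19.0 and 198 ± 40.7 CPM in mature control and CD45 KO cells, 233 ± 40.9 and 164 ± 12.6 CPM in immature cells, and 366 ± 89.6 and 563 ± 114 CPM in lung. Ifngr1, a chain of the interferon gamma receptor, had effects of -0.50, -0.50 and 1.12, and Gpr132, a G protein-coupled receptor gene, -0.87, -0.87 and 0.50. The marrow effects of Ifngr1 rest on low levels with overlapping SD ranges. It was at 131.6 ± 83.6 and 91.4 ± 60.2 CPM in mature control and CD45 KO cells, and at 128.5 ± 39.4 and 85.5 ± 82.3 CPM in immature cells. In lung it was at 373.7 ± 27.2 and 825.5 ± 119.5 CPM. Btg2 was also low in marrow, at 72.8 to 103.8 CPM, against 508.9 CPM in lung control. Lztfl1 shared the CD45 effects (-0.47, -0.39 and 0.70) but not the tissue pattern, since it was at 922 ± 137 CPM in mature and 103 ± 43.1 CPM in lung control cells. Its r with Lmo4 was -0.67 over the 6 means and 0.76 within groups. Tnfrsf18 and Ifngr1 were named by both measures. These are descriptions over shared libraries and carry no p.

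**Figure D4:**
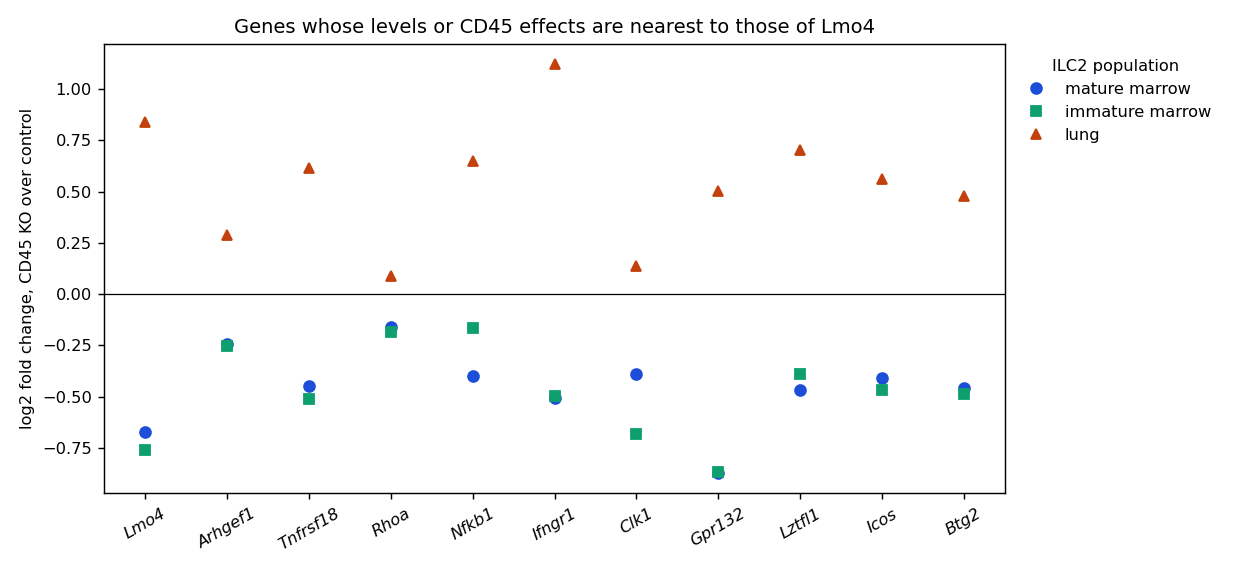
Log2 fold change of CD45 KO over control in mature marrow (circles), immature marrow (squares) and lung (triangles) for Lmo4 and the 10 genes nearest to it by group means or by the 3 effects. Each of the 11 genes lies below 0 in marrow and above 0 in lung, as selection for likeness to Lmo4 favours, and Rhoa has the smallest lung value at 0.09.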

How the data were processed

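Cells were lysed and reverse transcribed with a barcoded oligo-dT primer, with template switching and PCR, per the labels' protocols. The labels give 200 sorted cells per sample but 100 cells per tube. The submitters' processing notes name STAR and mm10 without a role. Of the counting tool, the strand setting and the collapsing of barcodes, the sources used here say nothing. The authors deposited raw counts, whole numbers for each gene symbol, with 1 column per library. The table has 0 spike-in (ERCC) entries.

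Counts were scaled with TMM factors, filtered with filterByExpr by group (minimum count 10, 1916 genes kept) and fitted as 6 group means over all 18 libraries in edgeR 4.0.16 (R 4.3.3). P-values come from edgeR's quasi-likelihood test, Benjamini-Hochberg adjusted over all tested genes (threshold 0.05). SE was taken as |log2 fold change| over √F, with the estimate of the spread shared over the 6 groups. Log2 CPM used a prior count of 2. Poisson and binomial intervals are exact at 95%, and the limit for a count of 0 is 3 counts. The common biological coefficient of variation was 0.0969. Positions come from GENCODE M21. The steps were tested on simulated data.

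The members and gene lists were chosen with earlier results of these data known. Genes named are the 3 members, Ptprc, members of the LIM, LDB1 complex and LMO4 partner lists that passed in a comparison, 9 of these named in any case, ILC2 identity genes that passed in a CD45 comparison, and the 6 nearest genes by each of 2 measures of likeness. Marker genes, Runx1, Tcf4, Il6st, the tested LMO4 partners, untested family genes and the 4 other genes sharing the non-overlapping pattern were named outside this rule, after their values were seen. Alternatives were DESeq2 1.42.0 size factors, its Wald test, no filter or at least 10 counts in 3 libraries, a fit on only the libraries compared, a block for replicate number, and omission of 1 library at a time. Scaling by total counts alone and leaving out Rn45s and Rn4.5s, and levels without mature CD45 KO replicate 1, were chosen after seeing the data.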

Additional observations from a re-analysis of the deposited data

Results flagged for a closer look

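The CD45 effect on Lmo4 lay in opposite directions in lung and marrow. Every lung CD45 KO library was above every lung control, as for 12.3% of genes tested. Every mature and immature CD45 KO library was below every control of its stage, as for 6.21% and 8.51% of genes tested. In mature marrow, CD45 KO replicate 1, the library that stood apart, was at 1025 CPM, close to the lowest control at 1041 CPM. The difference between the effects was 1.51 on the log2 scale for lung against mature marrow and 1.60 for lung against immature marrow. This difference was not tested here, because Lmo4 was chosen for it.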

How the results depend on the processing

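The CD45 effect on Lmo4 kept its sign under all 14 alternatives in each population, between -0.99 and -0.48 in mature marrow, -0.86 and -0.63 in immature marrow, and 0.71 and 0.99 in lung. With each library left out, the mature effect ran from -0.99 (without mature CD45 KO replicate 1) to -0.48, and lung minus mature from 1.33 to 1.86. Ldb1 passed in 0 CD45 comparisons under the 13 alternatives that gave it an adjusted p (lowest adjusted p = 0.0614), and DESeq2's Wald test gave none in immature or lung cells. Its lung against mature difference ran from -1.03 to 0.03 with each library left out (0.0325 without mature control replicate 3). When the 6 mature libraries were fitted alone, Ldb1 was not among the genes tested. The number of genes passing was 5 in mature, 32 in immature and 48 in lung CD45 comparisons, 6 and 7 for lung minus mature and lung minus immature, and 1 for mature against immature control. With the DESeq2 Wald test these were 1 (mature), 10 (immature) and 11 (lung minus mature). Without a filter they were 22 (lung) and 4 (mature against immature). With only the libraries of the contrast they were 0 (mature, edgeR, 105 at an unadjusted p under 0.05), 2 (lung minus mature), 13 (lung minus immature) and 3 (mature against immature). Leaving out each library gave 3 to 12 in mature, 12 to 26 in immature, 29 to 42 in lung, 1 to 13 for lung minus mature and 2 to 9 for lung minus immature. These moved by over 1.5 times without mature CD45 KO replicate 1 (12) or 3 (3) in mature, without immature control 1 (12), 2 (13) or 3 (19) or CD45 KO 2 (21) in immature, and without lung control 1 (31), 2 (29) or 3 (29) in lung. For lung minus mature they did so without mature control 1 (1) or 3 (2), mature CD45 KO 3 (13), lung control 2 or 3 (3 each) or lung CD45 KO 1 (3) or 3 (2), and for lung minus immature without immature control 1 (2) or CD45 KO 1 (3). The causes were not tested. Same-numbered libraries did not deviate together (correlations of -0.09 to 0.06), and with the replicate block the counts were 6, 30 and 44 in mature, immature and lung, with Lmo4 at -0.68, -0.76 and 0.85. Of 25 called gene results, 13 kept their call under every alternative. Depth limits Lmo2 and most complex genes.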
